A study of Mus musculus with 9 samples.

Results

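Thymocytes of Brd1 conditional knockout (CKO) mice that were sorted as CD4 single positive but lacked surface TCRβ were set against ordinary CD4 single-positive (CD4SP) thymocytes of the same genotype. The comparison uses 2 of the 9 one-colour (Cy3) Agilent arrays of the series, taken directly from their sample labels, with 1 array for each population, both on the same slide. Per the labels, both RNAs came from C57BL/6 mice aged 8 weeks with the genotype Brd1flox/flox, Tie2-Cre. For context the text also gives CD4SP cells of control mice and CD4 and CD8 double-positive (DP) cells of CKO and control mice, again 1 array each at 8 weeks. The controls carried Tie2-Cre with wild-type Brd1, so the Cre driver was shared by all groups. The other 4 arrays hold CD8 single-positive (CD8SP) cells of both genotypes at 8 weeks and from OT-I mice, which carry a transgenic TCR that recognises peptide on MHC class I, at 14 weeks. Tie2-Cre acts in endothelium and in blood-forming cells, so the deletion is not limited to thymocytes. TCRβ-negative cells were measured from CKO mice alone, and the labels do not say how many mice gave each RNA.

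T cells develop in the thymus in ordered stages. CD4 and CD8 double-negative (DN) cells rearrange the TCRβ gene, signal through a pre-TCR that pairs TCRβ with the surrogate chain encoded by Ptcra, divide, and become DP cells that rearrange the TCRα gene. DP cells whose complete receptor binds self MHC receive a survival signal (positive selection), stop recombination, become CD4SP or CD8SP cells, and acquire the receptors with which they leave the thymus. In mice CD4 is also carried without TCRβ by some innate lymphoid and dendritic cells.

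Levels below are log2 signals relative to the 75th percentile of the array, and differences are log2 values, TCRβ-negative minus CD4SP, unless stated otherwise. Of 55537 probes kept, 26706 were well above background on at least 1 of the 2 arrays, 23229 of them on both, 1502 only in TCRβ-negative cells and 1975 only in CD4SP cells. There were 24731 probes well above background on the TCRβ-negative array and 25204 on the CD4SP array, within the range of 21668 to 25493 over all 9 arrays. With 1 array for each population there is no replicate error for a direct difference, so genes past 2-fold are counted with no p-value. A limma model of all 9 arrays that adds a population term and a genotype term gives an error, on the assumption that the genotype effect is equal in all populations and that the lone TCRβ-negative array varies like the others. "Rose", "fell" and "changed" are used of genes that passed this fit at an adjusted p below 0.05. That error is the spread of the genotype difference between populations, not between mice. For CD8SP cells the control array was on slide 1 and the CKO array on slide 2, so genotype and slide cannot be told apart there. Both OT-I arrays were on slide 2. The fit used signals as measured, also those below background. Where a difference is given below as a bound (at least), the adjusted p beside it belongs to the estimate of the fit, not to the bound.

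The TCRβ-negative cells had recombination, DP stage and cell division transcripts near or above the levels of DP cells, and lower levels than CD4SP cells of most maturation, interferon-stimulated and chemokine receptor transcripts. Among 12141 genes with a symbol, 1612 were higher by more than 2-fold in TCRβ-negative cells (13.3%) and 1316 were lower (10.8%), and the median difference was 0.13. These counts, like those of the lists below, use differences as measured; with genes dim on 1 array (not well above background there) at their bound, 1456 were higher and 1173 lower. Genes well above background on both arrays gave 1246 higher and 836 lower, and normexp background correction gave 914 higher and 683 lower. Scaling moved this split: with the 75th percentile taken over probes well above background on all arrays, 1303 were higher and 1600 lower, and with differences centred on the median gene, 1375 were higher and 1529 lower. Among 10931 probes without a symbol, 975 were higher (8.92%) and 1347 lower (12.3%). In the additive fit of 12282 named genes, 26 rose (0.212%) and 152 fell (1.24%), and all 178 were also past 2-fold in the direct difference. Set directly against DP cells of the CKO on the same scale, the TCRβ-negative array had 252 of 11828 genes higher by more than 2-fold (2.13%) and 305 lower (2.58%). That comparison shares the TCRβ-negative array with the main one.

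The calls of the fit depended on the arrays and terms in it. Without the 2 OT-I arrays, an alternative chosen after seeing the data, 86 named genes rose (0.7%) and 220 fell (1.79%), and 175 of the 178 genes were called again. On the 6 arrays of slide 1 alone, 358 rose and 377 fell with 1 residual degree of freedom, and all 178 were called again. With slide as a block on 9 arrays, limma called 0 in either direction, with 1874 named genes at an unadjusted p below 0.05. The genes called over 9 arrays kept their direction in each of these fits. All the fits, like the direct difference, use the same lone TCRβ-negative array and the same CD4SP CKO array. Repeated calls and kept directions are therefore no independent check.

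**Figure D1:**
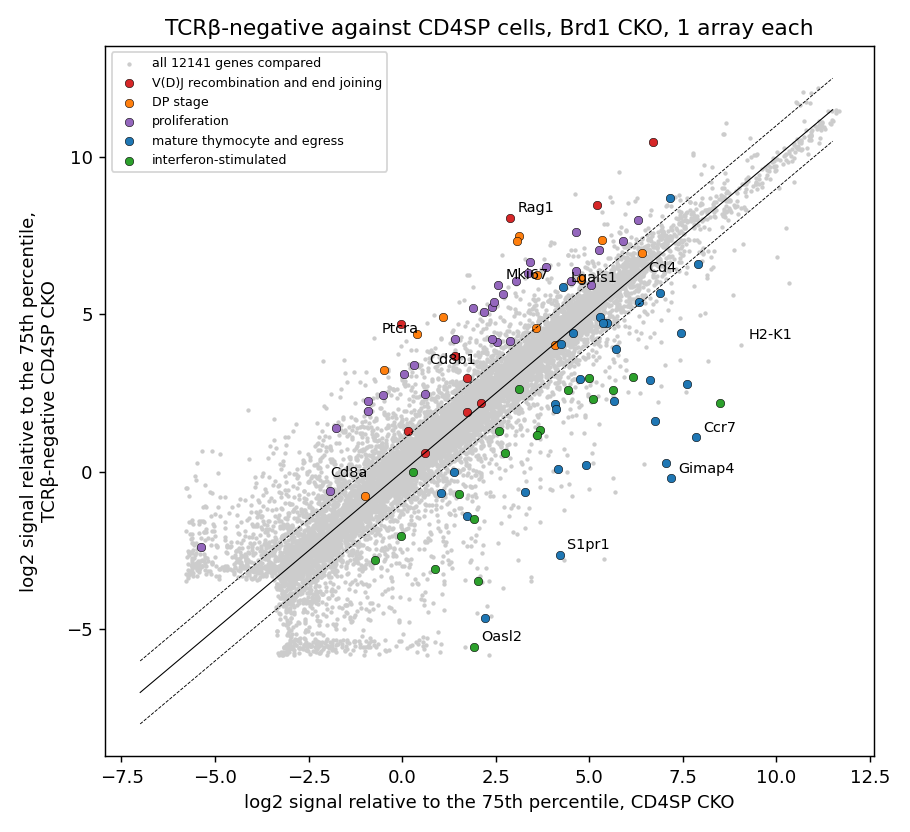
Log2 signal relative to the 75th percentile of the array for 12141 genes, 1 point per gene, in TCRβ-negative CD4SP cells (vertical axis) and CD4SP cells (horizontal axis) of Brd1 CKO mice, 1 array each. The solid line marks equal levels and the broken lines a 2-fold difference. Genes of the recombination, DP stage and proliferation lists lie on or above the solid line or close under it, whereas most of the mature thymocyte and interferon-stimulated lists lie below the lower broken line.

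Among the co-receptors, Cd4 in TCRβ-negative cells was near its CD4SP level, and both Cd8 transcripts were higher than in CD4SP cells. The source of the Cd8 message in this bulk RNA was not tested. Cd4 was 6.19 in TCRβ-negative and 6.38 in CD4SP cells of the CKO, against 6.54 in CD4SP control, 6.49 in DP CKO and 6.22 in DP control cells. These 5 values span a narrow range. Cd8b1, the CD8β chain, was 3.24 in TCRβ-negative and 0.54 in CD4SP cells, a difference of 2.71, and was 6.33 in DP CKO and 6.65 in DP control cells. Its level thus lay between those of the CD4SP and DP arrays. Cd8a, the CD8α chain, was -0.32 in TCRβ-negative and -2.11 in CD4SP cells, a difference of 1.79, with 4.71 in DP CKO cells. Its other probe differed by 0.78, in the same direction. Neither Cd8 gene passed the additive fit (limma, Cd8b1 estimate 2.30, SE 0.49, adjusted p = 0.108, and Cd8a estimate 1.57, SE 0.43, adjusted p = 0.181).

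Brd1 encodes a bromodomain scaffold subunit of histone acetyltransferase complexes and is the gene targeted in these mice. Its 1 named probe read -0.58 in TCRβ-negative and -0.98 in CD4SP cells of the CKO, a difference of 0.41. It read -1.09 in CD4SP control, -0.33 in DP CKO and -0.79 in DP control cells. The probe was not lower on arrays labelled CKO. Where it lies relative to the floxed exons is unknown here, and the deletion is therefore not checked by it. Of the 12 Brd1 family and complex genes compared, only Jade1, a scaffold of the related HBO1 complex, was past 2-fold as measured (2.26 in TCRβ-negative and 0.88 in CD4SP cells, difference 1.38, limma adjusted p = 0.18). The acetyltransferases Kat7 (difference 0.23), Kat6a (0.27) and Kat6b (-0.25), the scaffolds Brpf1 (0.40), Brpf3 (-0.25) and Jade2 (-0.03), and the accessory subunits Ing4 (0.61), Ing5 (0.63) and Meaf6 (0.46) all lay within 2-fold. Jade3, another scaffold, was dim in CD4SP cells, with a difference of at least 0.25.

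Ptcra, the surrogate α chain of the pre-TCR, stood apart from the chains of the receptor complex itself. Its level was 4.25 in TCRβ-negative cells and -0.74 in CD4SP cells of the CKO, a difference of 4.99, and 0.33 in CD4SP control, 3.94 in DP CKO and 3.84 in DP control cells. The TCRβ-negative array was the highest of these 5 and the CD4SP CKO array the lowest. The additive estimate was 5.50 (SE 1.47, limma adjusted p = 0.173), and the adjusted p was 0.0464 without the OT-I arrays. The signalling chains of the complex were nearly level. Cd3e was 8.14 in TCRβ-negative and 8.32 in CD4SP cells (difference -0.18), Cd3d 8.88 and 9.16 (-0.27), Cd3g 7.77 and 8.05 (-0.28), and Cd247, the ζ chain, 3.22 and 3.39 (-0.17). Trat1, a transmembrane adaptor associated with the receptor, was 4.24 in TCRβ-negative and 3.31 in CD4SP cells (difference 0.93). The CD3 and ζ chain transcripts of cells sorted without surface TCRβ were thus within 2-fold of those of CD4SP cells. The TCR constant region genes Trac, Trbc1 and Trbc2 had no probe that could be named here and were not analysed.

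Genes of V(D)J recombination and end joining were higher as a group in TCRβ-negative cells, led by those used only in lymphocytes. Of 10 members compared, 7 were higher by more than 2-fold and 0 were lower, and their median difference was 1.77 beside 0.13 over all genes. Rag1, a subunit of the recombinase that cuts antigen receptor genes, was 8.07 in TCRβ-negative cells and 2.88 in CD4SP cells of the CKO. On the other arrays Rag1 was 0.62 in CD4SP control, 8.09 in DP CKO and 8.07 in DP control cells. Rag2, its partner, was 4.69 in TCRβ-negative and -0.04 in CD4SP cells, with -1.36 in CD4SP control, 4.71 in DP CKO and 4.75 in DP control cells. The differences were 5.19 for Rag1 and 4.74 for Rag2, and for both genes the TCRβ-negative level was within 0.1 of DP CKO. Dntt, the terminal transferase that adds untemplated bases at the joints, was 10.48 in TCRβ-negative and 6.71 in CD4SP cells (difference 3.77), with 5.90 in CD4SP control, 10.46 in DP CKO and 10.30 in DP control cells. Like Rag1 and Rag2, it was at the DP level.

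Among the end-joining factors that all cells use, Xrcc6, which encodes Ku70, was 8.49 in TCRβ-negative and 5.22 in CD4SP cells (difference 3.27), with 4.63 in CD4SP control, 8.33 in DP CKO and 7.94 in DP control cells. Xrcc5, which encodes its partner Ku80, was 2.18 and 2.11 in TCRβ-negative and CD4SP cells, a difference of 0.07. The probes of the Ku dimer's subunits thus gave unequal differences. Lig4, the ligase of the pathway, was 3.67 in TCRβ-negative and 1.41 in CD4SP cells (difference 2.26), with 0.14 in CD4SP control, 3.04 in DP CKO and 3.22 in DP control cells. Nhej1, a ligase cofactor, was 2.99 in TCRβ-negative and 1.72 in CD4SP cells (1.27), with 1.90 in CD4SP control, 3.18 in DP CKO and 2.99 in DP control cells. Dclre1c, the hairpin-opening nuclease Artemis, was 1.31 in TCRβ-negative and 0.16 in CD4SP cells (1.14), with -0.63 in CD4SP control, 1.12 in DP CKO and 1.83 in DP control cells. Prkdc, the catalytic subunit of the DNA-dependent kinase (-0.02), and Xrcc4, the ligase partner (0.18), did not differ by 2-fold. None of the 10 passed the fit over 9 arrays (lowest limma adjusted p = 0.124, for Rag1, estimate 6.49, SE 1.46). Without the OT-I arrays Rag1, Rag2, Dntt and Xrcc6 passed, with adjusted p of 0.0408 to 0.0462.

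The promoters of Rag1 and Ptcra are shown for the E-box CAGCTG, a sequence bound by E proteins such as those encoded by Tcf3 and Tcf12, which regulate both genes in developing lymphocytes. The 100-base stretches are from RefSeq promoters (GRCm38.p6, 250 bases before to 50 after the start), on the strand of the gene, with the motif in capitals. Rag1 lies on the minus strand, chr2:101649581-101649680, -148 to -49 from its start, and Ptcra on the minus strand, chr17:46763713-46763812, -100 to -1 from its start.
Rag1: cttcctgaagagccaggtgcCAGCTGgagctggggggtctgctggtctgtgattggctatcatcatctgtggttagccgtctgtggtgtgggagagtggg
Ptcra: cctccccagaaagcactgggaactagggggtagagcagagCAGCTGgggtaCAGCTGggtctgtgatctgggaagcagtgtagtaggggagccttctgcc
CAGCTG, which reads the same on both strands, was found in the promoters of 3 of 9 recombination genes with a RefSeq promoter (Rag1, Dclre1c and Lig4), 2 of 6 receptor chain genes (Ptcra and Cd3g) and 2 of 9 DP stage genes. It occurs in 18.3% of 27025 mouse promoters of the same length. A match describes the sequence and is no evidence of binding. Tcf12 itself was 4.13 in TCRβ-negative and 2.46 in CD4SP cells (difference 1.67, limma adjusted p = 0.147).

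Genes characteristic of the DP stage were likewise at DP level in most cases. Of 12 compared, 8 were higher by more than 2-fold and 0 lower, with a median difference of 2.35. Bcl2l1, which encodes Bcl-xL, a survival protein of DP cells, was 7.38 in TCRβ-negative and 5.33 in CD4SP cells (2.05), with 5.43 in CD4SP control, 7.47 in DP CKO and 7.52 in DP control cells. It lay near the DP values and did not pass the fit (limma adjusted p = 0.104).

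Tdrd5, a tudor domain protein known from germ cells, was the DP stage gene that rose in the fit. Its level was 4.37 in TCRβ-negative cells and 0.39 in CD4SP cells, with -1.29 in CD4SP control, 4.24 in DP CKO and 3.53 in DP control cells. The direct difference was 3.98 and the limma estimate 4.28 (SE 0.46, adjusted p = 0.0335). The aquaporin Aqp11 (7.35 in TCRβ-negative and 3.07 in CD4SP cells, difference 4.28, with 7.34 in DP CKO, 6.81 in DP control and 2.04 in CD4SP control cells) and the semaphorin receptor Plxnd1 (6.26 and 3.61 in TCRβ-negative and CD4SP cells, difference 2.65, with 6.52 in DP CKO, 6.38 in DP control and 3.91 in CD4SP control cells) passed only without the OT-I arrays (limma adjusted p = 0.0398 and 0.0498). Endou, an endoribonuclease, was 7.51 in TCRβ-negative and 3.13 in CD4SP cells (4.38), with 1.02 in CD4SP control, 7.57 in DP CKO and 7.16 in DP control cells. Arpp21, a cyclic AMP-regulated phosphoprotein, was 3.23 and -0.48 in TCRβ-negative and CD4SP cells (3.71), with -2.18 in CD4SP control, 3.15 in DP CKO and 3.26 in DP control cells. Ets2, a transcription factor, was 6.12 in TCRβ-negative and 4.77 in CD4SP cells (1.35), with 4.73 in CD4SP control, 6.31 in DP CKO and 7.09 in DP control cells. The nucleoside transporter Slc29a1 (0.99), the chemokine receptor Ccr9 (0.54), the fatty acid elongase Elovl6 (0.23) and the lipid-presenting molecule Cd1d1 (-0.04) differed by less than 2-fold.

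**Figure D2:**
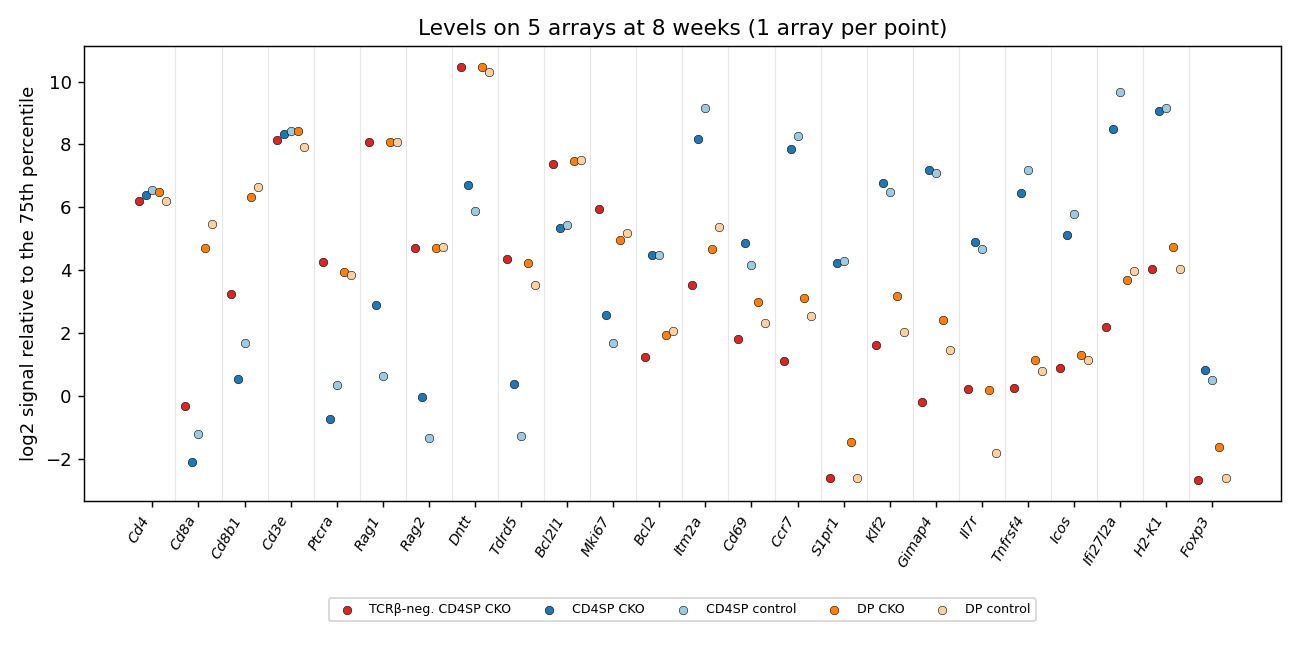
Log2 signal relative to the 75th percentile of the array for 24 genes on 5 arrays at 8 weeks, 1 array per point, in the order TCRβ-negative CD4SP CKO, CD4SP CKO, CD4SP control, DP CKO and DP control. From Ptcra to Mki67 the TCRβ-negative points lie with the DP points or above them, as for Rag1 at 8.07 against 8.09 in DP CKO. For Ccr7, S1pr1 and Gimap4 they lie at or below the lower DP point.

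The 12 largest higher genes of at least median brightness were Rag1, Ptcra, Rag2, Endou and Aqp11 together with 7 others. Syt13, a synaptotagmin, was 6.27 in TCRβ-negative and 1.74 in CD4SP cells (difference 4.53). Rapgef3, a cyclic AMP-activated exchange factor for Rap GTPases, was 6.24 and 1.78 in TCRβ-negative and CD4SP cells (4.46), and Dhrs3, a retinaldehyde reductase, was 6.88 and 2.67 (4.20). Prodh, the proline dehydrogenase (difference 4.11), Stra8, a retinoic acid-induced gene of germ cells (4.07), Iftap (4.06) and Gm525 (4.21) completed them. In TCRβ-negative cells these 7 genes stood at 6.27, 6.24, 6.88, 4.97, 4.17, 4.71 and 8.83 in the order named, against 6.09, 6.29, 7.11, 5.26, 3.57, 4.85 and 8.96 in DP CKO and 5.99, 5.75, 6.90, 5.11, 0.87, 4.67 and 5.61 in DP control cells. For Stra8 and Gm525 the DP control array was thus far below the TCRβ-negative and DP CKO arrays, and for the other 5 genes both DP arrays were near the TCRβ-negative level. None of the 12 passed the fit over 9 arrays, with limma adjusted p of 0.0774 (Dhrs3) to 0.331 (Stra8).

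Cell division transcripts were at their highest in TCRβ-negative cells among the 5 arrays, by the median of the list. All but 1 of the 30 proliferation genes compared were higher by more than 2-fold (29), the exception being Mcm4 at 0.92, named here after its value was seen. The median difference was 2.87 and the median level was 5.22 in TCRβ-negative cells, against 4.51 in DP CKO, 4.90 in DP control, 2.50 in CD4SP CKO and 2.27 in CD4SP control cells. Among CD8SP cells the median level was higher in control (5.51) and OT-I control (5.67) cells. It was lower in CKO (4.08) and OT-I CKO (2.27) cells. The CD8SP control array was on slide 1 and the CD8SP CKO array on slide 2, so these 2 medians differ in slide as well as genotype. Mki67, a marker of cycling cells, was 5.95 in TCRβ-negative and 2.57 in CD4SP cells (difference 3.38), with 4.95 in DP CKO and 5.18 in DP control cells. Rrm2, the ribonucleotide reductase subunit needed for DNA synthesis, was 6.68 in TCRβ-negative and 3.40 in CD4SP cells (3.27), with 6.04 in DP CKO cells. Ccnb1, the mitotic cyclin B1, was 5.19 and 1.90 in TCRβ-negative and CD4SP cells (3.30), and Cdc6, a replication licensing factor, was 1.41 and -1.76 (3.17). The TCRβ-negative array was the highest of the 5 for all 4 of these genes. None of the 30 passed the fit over 9 arrays, with limma adjusted p of 0.155 to 0.195 for these 4, and 4 passed without the OT-I arrays, among them Mki67 (0.0456) and Rrm2 (0.043).

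Genes of the DN stage and Notch signalling did not move as a group. Of 13 compared, 3 were higher (2 with bounds) and 5 lower by more than 2-fold, with a median of -0.08. Notch3, a receptor active at the pre-TCR stage, was 2.75 in TCRβ-negative and -0.99 in CD4SP cells (difference 3.74), with 2.63 in DP CKO and 1.54 in DP control cells (limma adjusted p = 0.0807). Kit, the stem cell factor receptor of the earliest progenitors, fell: it was not well above background in TCRβ-negative cells (-5.68 as measured) and was -1.53 in CD4SP cells, a difference of at least -2.04 (limma estimate -4.18, SE 0.55, adjusted p = 0.0394). Cd44, an adhesion molecule of early progenitors and of activated T cells, was 0.00 in TCRβ-negative and 2.05 in CD4SP cells (-2.05). Mycn was well above background only in TCRβ-negative cells (-2.70), a difference of at least 0.74.

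Transcripts induced by TCR signalling at positive selection were lower in TCRβ-negative cells. Of 21 compared, 15 were lower by more than 2-fold and 1 was higher, the transcriptional repressor Gfi1 (2.10, named after its value was seen). The median difference was -1.99, and 3 genes fell in the fit. Itm2a, a membrane protein induced at positive selection, was 3.53 in TCRβ-negative and 8.16 in CD4SP cells, with 4.68 in DP CKO and 5.38 in DP control cells. It was lowest in TCRβ-negative cells, with a difference of -4.64 (limma estimate -4.71, SE 0.35, adjusted p = 0.0324). Cd2, an adhesion receptor, was 5.60 in TCRβ-negative and 8.83 in CD4SP cells (-3.23, adjusted p = 0.0349), and Bcl2, which protects single-positive cells from death, was 1.23 and 4.50 (-3.27, adjusted p = 0.0387). Cd69, the early activation marker that holds selected cells in the thymus, was 1.80 in TCRβ-negative and 4.88 in CD4SP cells (-3.08), below the 2.99 of DP CKO and the 2.33 of DP control cells, with an adjusted p of 0.0688.

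The kinases and adaptors next to the receptor differed less, as 4 of 25 were higher and 5 lower by more than 2-fold, with a median of -0.56 and 0 calls in the fit. Fyn, a Src family kinase, was -0.10 in TCRβ-negative and 2.11 in CD4SP cells (difference -2.21), and the ubiquitin ligase Cblb was -0.45 and 1.69 (-2.14). Its relative Cbl went the other way, 2.32 in TCRβ-negative and 0.64 in CD4SP cells (1.68). Themis, a regulator of TCR signal strength in selection, was 4.13 and 2.62 (1.52), close to the 4.16 of DP CKO cells. The limma adjusted p of these 4 was 0.0684 to 0.16.

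Mature thymocyte and egress genes were mostly lower in TCRβ-negative cells. Of 30 compared, 22 were lower by more than 2-fold and 2 higher (Lgals1 and Crip1, both 1.55, named after their values were seen), with a median of -2.02, and 11 fell in the fit. Gimap4, a GTPase of the immunity-associated family that supports lymphocyte survival, was -0.20 in TCRβ-negative and 7.19 in CD4SP cells, with 2.40 in DP CKO and 1.47 in DP control cells. Its relative Gimap3 was 0.29 in TCRβ-negative and 7.05 in CD4SP cells, with 2.39 in DP CKO and 0.73 in DP control cells. The differences were -7.39 and -6.76, and for both genes the TCRβ-negative array was the lowest of the 5. The 3 probes of Gimap4 spanned differences of -8.18 to -3.89. Slfn1, a Schlafen protein of quiescent T cells, was dim in TCRβ-negative cells and 2.22 in CD4SP cells, which gives a difference of at least -5.80.

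Receptors that guide cells to the medulla and out of the thymus fell, along with the transcription factor above one of them. Ccr7, the chemokine receptor that draws selected cells to the medulla, was 1.11 in TCRβ-negative and 7.86 in CD4SP cells, with 3.10 in DP CKO and 2.55 in DP control cells. S1pr1, the sphingosine phosphate receptor needed to leave the thymus, was -2.63 in TCRβ-negative and 4.22 in CD4SP cells, with -1.47 in DP CKO and -2.62 in DP control cells. Klf2, the transcription factor that drives S1pr1, was 1.60 in TCRβ-negative and 6.77 in CD4SP cells, with 3.18 in DP CKO and 2.02 in DP control cells. Their differences were -6.76, -6.84 and -5.17, and the limma estimates were -7.30 (SE 0.62), -7.43 (SE 0.64) and -5.58 (SE 0.50), each with an adjusted p of 0.0324. Of the 14 chemokine and sphingosine phosphate receptors, 12 were lower by more than 2-fold (11 with bounds) and 0 higher, with a median of -3.21 (-2.55 with genes dim on 1 array at their bound), and 5 fell. Besides Ccr7 and S1pr1 these included Gpr183, an oxysterol receptor (at least -5.78, adjusted p = 0.047), and Cxcr3 (at least -5.63, adjusted p = 0.0404), both dim in TCRβ-negative cells.

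The 12 largest lower genes of at least median brightness were Gimap4, Gimap3, Ccr7, Klf2 and 8 others. Ccnd2, the G1 cyclin D2, was -0.63 in TCRβ-negative and 5.68 in CD4SP cells (difference -6.30), opposite to the mitotic cyclins above. Ctss, the lysosomal protease cathepsin S, was -0.18 and 5.64 in TCRβ-negative and CD4SP cells (-5.83), the integrin chain Itgb3 was -1.20 and 4.31 (-5.52), and the tetraspanin Cd53 was -0.76 and 4.54 (-5.30). The calcium-binding protein Tesc (2.53 in TCRβ-negative and 7.58 in CD4SP cells, -5.05), Tnfrsf4, Ccl5 and Ifi27l2a completed the 12. All fell in the fit (limma adjusted p = 0.0324 to 0.038) except Ifi27l2a (0.0774, and 0.0294 without the OT-I arrays).

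**Figure D3:**
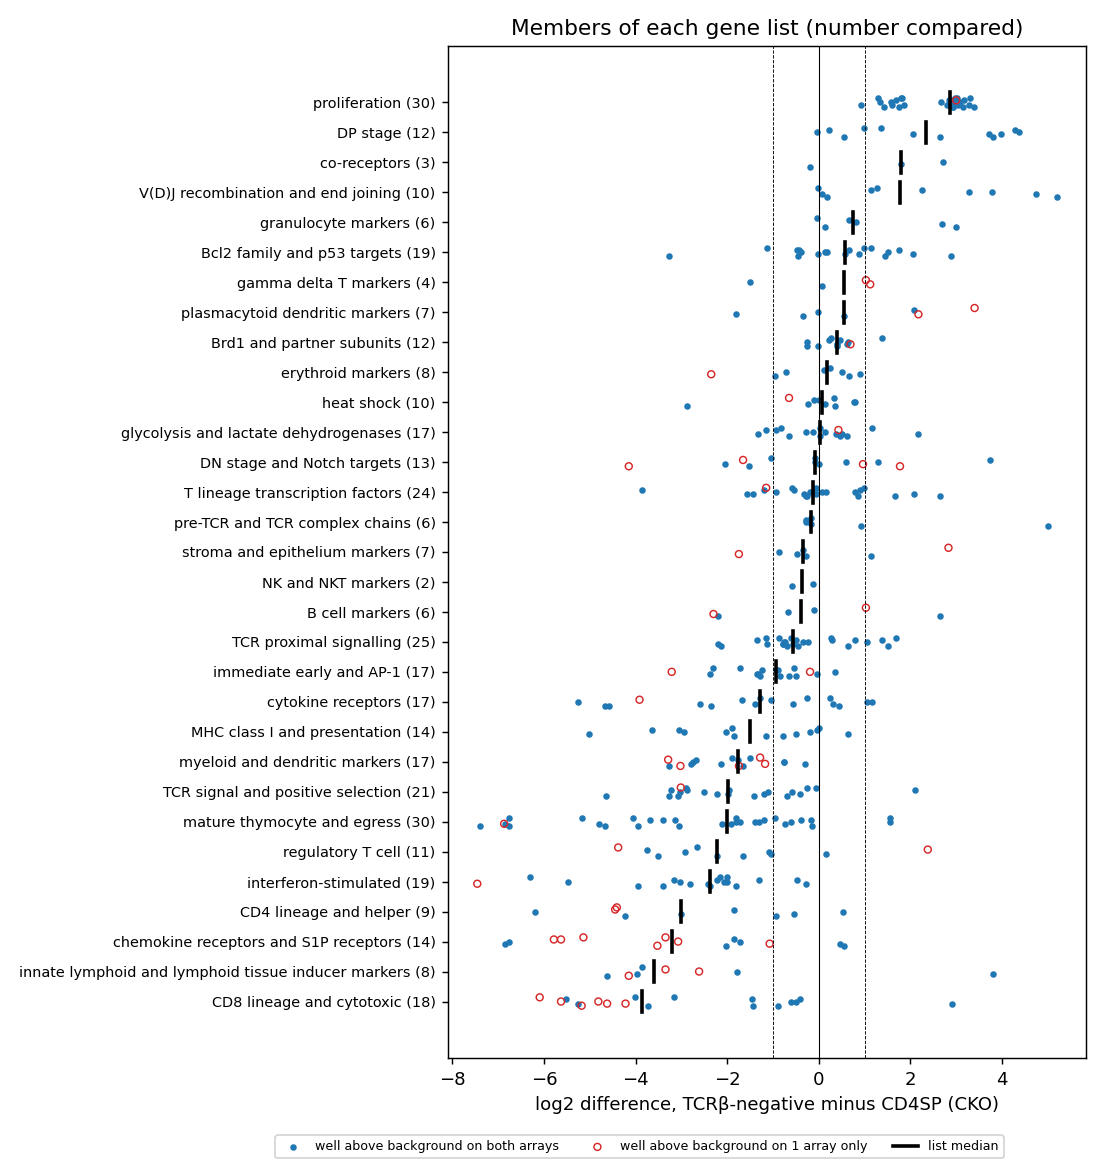
Log2 difference, TCRβ-negative minus CD4SP (CKO), of every compared member of 31 gene lists, ordered by median, with the number compared in parentheses. Filled points are genes well above background on both arrays, open points on 1 array only, the short bars are medians, and the broken lines mark 2-fold. Proliferation, with a median of 2.87, stands at one end and the CD8 and cytotoxic list, at -3.87, at the other.

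Most listed lineage and effector genes of both single-positive fates were lower, but the CD4 lineage factors Zbtb7b and Gata3 were within 2-fold. Among 9 CD4 lineage and helper genes, 6 were lower by more than 2-fold and 0 higher, with a median of -3.02 (-2.61 with bounds), and 3 fell. Tnfrsf4, the costimulatory receptor OX40, was 0.26 in TCRβ-negative and 6.45 in CD4SP cells (-6.19, limma adjusted p = 0.0324). Icos, another costimulatory receptor, was 0.90 and 5.12 in TCRβ-negative and CD4SP cells (-4.22, adjusted p = 0.0466). The sialyltransferase St8sia6 was not well above background in TCRβ-negative cells, with a difference of at least -2.61 and a limma estimate of -5.17. It was well above background on 2 of the 9 arrays, so most signals behind its estimate were not. Cd200 was dim in TCRβ-negative cells too (at least -4.12) and did not pass the fit over 9 arrays. On the DP CKO array Tnfrsf4 and Icos were at 1.15 and 1.30. The list members within 2-fold were Zbtb7b (-0.94), Gata3 (-0.54) and Socs1 (0.53), named after their values were seen.

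Among 18 CD8 lineage and cytotoxic genes, 13 were lower by more than 2-fold and 1 higher, the granzyme Gzma (2.90, named after its value was seen), with a median of -3.87 (-2.80 with bounds), and 3 fell. Ccl5, a chemokine of effector and memory-like cells, was -0.53 in TCRβ-negative and 4.98 in CD4SP cells (-5.51, adjusted p = 0.0324). Il2rb, the shared β chain of the interleukin 2 and 15 receptors, was -1.59 and 3.67 (-5.27, adjusted p = 0.0497). Ifng, the cytokine interferon gamma, was dim in TCRβ-negative cells and 0.56 in CD4SP cells (at least -4.14, adjusted p = 0.0673). Ccl5 and Il2rb were thus well above background on the CD4SP array too, although CD4SP cells were sorted as CD8-negative.

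Regulatory T cell genes were lower as well, 9 of 11 by more than 2-fold, with a median of -2.23 and 2 calls. Foxp3, the lineage factor, was -2.69 in TCRβ-negative and 0.82 in CD4SP cells, with -1.63 in DP CKO and -2.61 in DP control cells (difference -3.51, limma estimate -3.53, SE 0.43, adjusted p = 0.0376). The orphan receptor Gpr83 was dim in TCRβ-negative cells (at least -2.17, limma estimate -4.55). It was well above background on 2 of the 9 arrays, so most signals behind its estimate were not. Ikzf4, an Ikaros family factor (-3.75), and Lrrc32, the surface molecule that presents latent TGFβ (-2.93), had adjusted p of 0.0704 and 0.123. The 3 probes of Ikzf4 spanned differences of -4.23 to -0.60. The 1 higher gene was Nrp1, a semaphorin coreceptor dim in CD4SP cells (at least 2.04, named after its value was seen). In sorted bulk RNA such as this, fewer cells of a type and less RNA per cell cannot be told apart.

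Cytokine receptors were lower by more than 2-fold in 10 of 17 cases and higher by more than 2-fold in 2, with a median of -1.29. Il7r, the receptor through which single-positive cells receive interleukin 7, was 0.22 in TCRβ-negative and 4.90 in CD4SP cells (-4.68), with 0.20 in DP CKO and -1.81 in DP control cells (adjusted p = 0.0718, and 0.0362 without the OT-I arrays). Il6ra, the interleukin 6 receptor, was -0.58 and 4.00 in TCRβ-negative and CD4SP cells (-4.58, adjusted p = 0.0376). Il18r1 was dim in TCRβ-negative cells, with a difference of at least -2.09.

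Interferon-stimulated transcripts, which rise late in thymocyte maturation, were lower almost throughout. Of 19 compared, 17 were lower by more than 2-fold and 0 higher, with a median of -2.37, and 3 fell. Oasl2, an oligoadenylate synthetase-like antiviral protein, was dim in TCRβ-negative cells and 1.91 in CD4SP cells (at least -5.49, limma adjusted p = 0.0324). Ifit3, an antiviral RNA-binding protein family member, was -3.45 in TCRβ-negative and 2.04 in CD4SP cells (-5.48, adjusted p = 0.0324), with -3.44 in DP CKO cells. Its relative Ifit1 was -3.08 and 0.86 in TCRβ-negative and CD4SP cells (-3.95, adjusted p = 0.147). Ifi27l2a was 2.19 in TCRβ-negative and 8.48 in CD4SP cells, with 3.67 in DP CKO and 3.96 in DP control cells.

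The promoters of Ifit3, Ifit1 and Isg15, an interferon-induced ubiquitin-like modifier named here for its promoter (difference -3.16), are shown for a pair of GAAA half-sites with any 2 bases between them, the core read by interferon-activated STAT and IRF complexes. They are RefSeq sequences (GRCm38.p6) on the strand of the gene, with this element or its reverse complement in capitals. Ifit3 is on the plus strand, chr19:34583353-34583452, -176 to -77 from its start. Ifit1 is on the plus strand, chr19:34640765-34640864, -124 to -25, and Isg15 on the minus strand, chr4:156200819-156200918, -100 to -1.
Ifit3: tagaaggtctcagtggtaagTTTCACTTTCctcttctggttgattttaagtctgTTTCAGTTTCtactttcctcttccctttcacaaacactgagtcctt
Ifit1: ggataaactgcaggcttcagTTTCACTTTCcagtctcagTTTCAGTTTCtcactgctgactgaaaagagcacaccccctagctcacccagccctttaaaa
Isg15: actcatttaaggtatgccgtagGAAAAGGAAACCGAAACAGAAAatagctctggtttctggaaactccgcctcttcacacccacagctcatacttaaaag
Isg15 holds 3 overlapping matches. On either strand the element was found in 8 of the 16 interferon list genes with a RefSeq promoter, against 3.99% of 27025 promoters of the same length. The list was drawn up from genes known for induction by interferon, so this share describes the list and says nothing of what acted in these cells.

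MHC class I genes moved the same way. Of 14 compared, 8 were lower by more than 2-fold and 0 higher, with a median of -1.50, and 4 fell. H2-K1 was 4.04 in TCRβ-negative and 9.05 in CD4SP cells, with 4.72 in DP CKO and 4.03 in DP control cells (difference -5.01, limma estimate -5.43, SE 0.51, adjusted p = 0.0324). H2-D1 was 4.99 in TCRβ-negative and 7.94 in CD4SP cells (-2.95, adjusted p = 0.0435), and H2-Q7 was 4.41 and 7.46 (-3.05, adjusted p = 0.041). Nlrc5, the transactivator of class I genes, was -0.54 and 3.10 in TCRβ-negative and CD4SP cells (-3.64, adjusted p = 0.0461). The other probes of H2-K1 and Nlrc5 differed less, by -2.85 and -1.96. The class I genes are near-identical in sequence, and cross-hybridisation between their probes was not tested.

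Among the 17 immediate early and AP-1 genes, 8 were lower by more than 2-fold and 0 higher, with a median of -0.93. Dusp1, a phosphatase of MAP kinases, fell (2.86 in TCRβ-negative and 5.17 in CD4SP cells, -2.31, limma adjusted p = 0.0492). Ier2 was -0.01 and 2.37 in TCRβ-negative and CD4SP cells (-2.38, adjusted p = 0.0684), the AP-1 subunit Junb -0.09 and 1.63 (-1.72), and Fosl2 was dim in TCRβ-negative cells (at least -2.37). Heat shock genes had a median of 0.07 with 1 of 10 past 2-fold, the inducible chaperone Hspa1a (-2.76 in TCRβ-negative and 0.11 in CD4SP cells, -2.87). Glycolysis genes had a median of 0.03, with 2 of 17 higher and 2 lower by more than 2-fold. These were Ldhb (2.17) and Tpi1 (1.16), and Slc2a3 (-1.33) and Aldoa (-1.14). Heat shock and glycolysis medians change sign with the scaling.

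T lineage transcription factors were mostly level, with 3 of 24 higher and 5 lower (4 with bounds) by more than 2-fold and a median of -0.13. Id2, an inhibitor of E proteins that increases as cells leave the DP stage, fell (0.55 in TCRβ-negative and 4.40 in CD4SP cells, with 1.68 in DP CKO cells, difference -3.86, limma adjusted p = 0.043). The 3 higher genes were Myb, needed for DP cell survival (6.58 in TCRβ-negative and 3.95 in CD4SP cells, 2.64), and the E protein genes Tcf4 (0.26 and -1.81, 2.07) and Tcf12 (1.67). Among 19 Bcl2 family and p53 target genes, 6 were higher and 2 lower by more than 2-fold, with a median of 0.58. Bmf, a death-promoting BH3-only protein, rose (4.21 in TCRβ-negative and 1.32 in CD4SP cells, with 4.30 in DP CKO and 4.15 in DP control cells, 2.89, limma estimate 3.09, SE 0.45, adjusted p = 0.0497). Bid, another BH3-only gene, was 3.80 and 2.04 in TCRβ-negative and CD4SP cells (1.76, adjusted p = 0.226). Bcl2 and Bcl2l1 thus differed in opposite directions, -3.27 and 2.05.

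**Figure D4:**
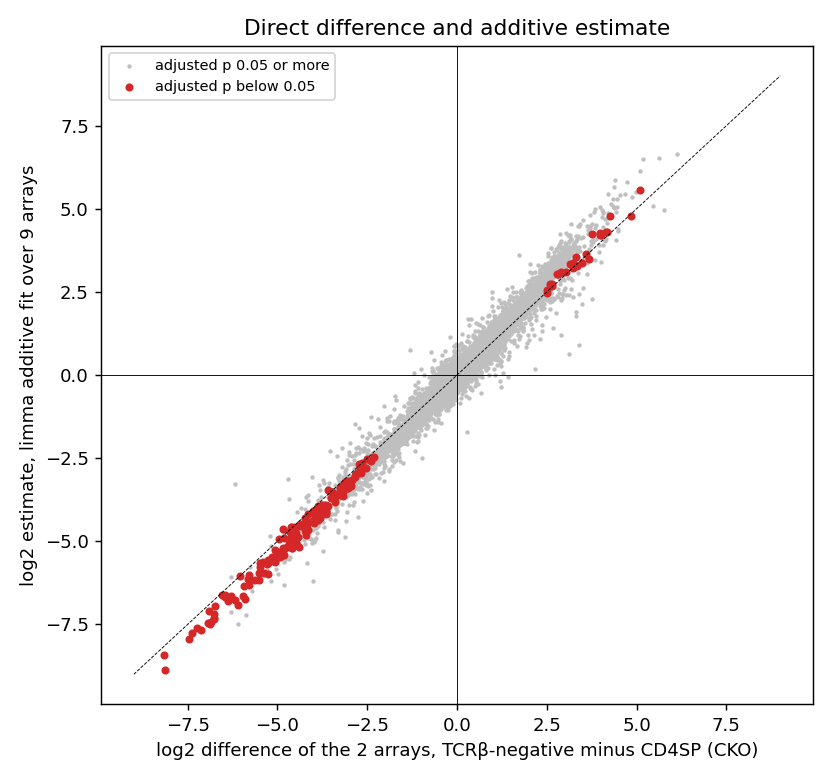
Direct log2 difference of the 2 arrays (horizontal axis) and the estimate from the limma additive fit over 9 arrays (vertical axis), 1 point per gene, with the 178 genes at an adjusted p below 0.05 in red and the broken line marking equal values. The 26 genes that rose and the 152 that fell all lie past 2-fold on the horizontal axis.

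Markers of other cells that a CD4 gate without TCRβ could hold were compared on the same arrays. Levels are summed here on the linear scale over each list, in multiples of the 75th percentile. Myeloid and dendritic markers summed to 53.3 in TCRβ-negative and 134 in CD4SP cells (53.3 to 1080 over the 9 arrays), with 12 of 17 well above background on the TCRβ-negative array and 17 on the CD4SP array, and 14 of 17 lower by more than 2-fold (13 with bounds). The invariant chain Cd74 was 0.13 and 3.41 in TCRβ-negative and CD4SP cells (-3.28, adjusted p = 0.038), and the class II gene H2-Aa was -2.11 and 0.68 (-2.78). Lyz2 (at least -2.44, adjusted p = 0.038) and Itgax (at least -2.71, adjusted p = 0.0513) were dim in TCRβ-negative cells, Tyrobp was 0.11 and 1.61 in TCRβ-negative and CD4SP cells, and Csf1r was 3.57 and 3.87. These markers moved in the same direction as the interferon-stimulated, MHC class I, chemokine receptor and maturation genes, and their part in those results was not tested.

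Innate lymphoid and lymphoid tissue inducer markers summed to 123 in TCRβ-negative and 345 in CD4SP cells, and 7 of 8 were lower by more than 2-fold, with a median of -3.60 (6 of 8 and -2.63 with bounds). Tnfsf11, the cytokine RANKL that selected thymocytes also make, was -2.79 and 1.84 in TCRβ-negative and CD4SP cells (-4.63, adjusted p = 0.0324), and Lta, lymphotoxin α, differed by -3.97 (adjusted p = 0.0335). Kit and Id2, shared with other lists, fell as given above. B cell markers summed to 15.6 in TCRβ-negative and 11.0 in CD4SP cells. Of 6 compared, 2 were higher (1 with bounds) and 2 lower by more than 2-fold, with a median of -0.39. Jchain was 0.59 in TCRβ-negative and 2.79 in CD4SP cells (-2.21). Cd79b, a chain of the B cell receptor complex, rose (3.65 and 0.99, 2.65, limma adjusted p = 0.0423), and was 3.80 in DP CKO and 3.78 in DP control cells. Ms4a1, which encodes CD20, was dim in TCRβ-negative cells (at least -1.29), and Cd79a, Pax5 and Ebf1 were well above background on neither of the 2 arrays.

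Plasmacytoid dendritic markers summed to 529 in TCRβ-negative and 608 in CD4SP cells, of which Siglech, at 8.61 and 8.95, made up most; its level was 8.55 to 9.06 on the 5 arrays at the CD4SP and DP stages. Cox6a2 (at least 3.40) and Spib (at least 1.20) were dim in CD4SP cells of the CKO. In CD4SP control cells they were 1.85 and 0.03, above the 0.22 and -2.24 of TCRβ-negative cells. The limma estimates were 0.89 for Cox6a2 and 0.19 for Spib. Bst2, also induced by interferon, was 2.61 in TCRβ-negative and 4.43 in CD4SP cells (-1.81). Granulocyte markers summed to 8.10 and 4.77 in TCRβ-negative and CD4SP cells (4.77 to 15.6 over the 9 arrays), with S100a8 at -0.04 and -3.02 (2.99) and S100a9 at 1.33 and -1.35 (2.68). S100a8 and S100a9 were -0.08 and 1.44 in CD4SP control cells and 1.33 and 2.71 in DP control cells. In DP CKO cells S100a8 was dim and S100a9 was -2.88. Erythroid markers summed to 31.6 and 27.0 in TCRβ-negative and CD4SP cells, and NK and NKT markers to 1.57 and 2.23, with Zbtb16, the factor of innate-like T cells, at -2.17 and -2.03. Gamma delta T markers summed to 2.21 and 2.19, and stromal and epithelial markers to 5.23 and 5.34, with Epcam at 1.02 in TCRβ-negative and -0.12 in CD4SP cells (1.13). Krt5 was dim in TCRβ-negative cells (at least -1.44), and its other probe differed in the opposite direction. None of the plasmacytoid dendritic, granulocyte, erythroid, NK, gamma delta T or stromal genes passed the fit, and their part in the other differences was not tested.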

How the data were processed

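RNA of sorted thymocytes was measured on 9 Agilent arrays, 1 per group, and groups were taken from the labels. The deposited scanner files come from Agilent Feature Extraction 10.7.1.1, per the file headers, and hold a background-subtracted intensity for every spot. The deposited series table holds the same intensity divided by the array's 75th percentile (r = 1 with the scanner files on every array). The labels name a biotinylated cRNA protocol, whereas the files are those of a Cy3 experiment. Repeated spots were averaged by probe, 144 probes of 55681 carried outlier marks and were dropped, and log2 signals were taken relative to the 75th percentile over all non-control probes (139.7 intensity units for TCRβ-negative and 140.4 for CD4SP cells). No spot was saturated. The median SD between spots of a probe was 0.0735 for TCRβ-negative and 0.0778 for CD4SP cells; the number of arrays limits the precision.

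RefSeq accessions (GRCm38.p6) named 26715 probes with 20258 symbols. The array design names the build mm9, so no probe position is given. A gene was represented by its passing probe of highest mean. A gene dim on 1 array has an "at least" difference, set against the higher of that array's lowest signal well above background and the gene's own. The additive fit used limma 3.58.1 in R 4.3.3 on 22940 features well above background on at least 2 arrays. Tests were two-sided with Benjamini-Hochberg adjustment and 3 residual degrees of freedom. The code was run on simulated arrays with equal noise for every gene and differences planted on the TCRβ-negative array alone. These arrays held no genotype or other population effects. The run checked that planted differences were recovered and could not test the assumptions of the fit.

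The comparison, the 31 gene lists and the rule for naming genes were chosen with earlier results of these data known. Named genes were all members of the co-receptor, Brd1, receptor chain, recombination and DP stage lists, the 12 largest differences in each direction among genes of at least median brightness, up to 4 members past 2-fold of every other list by size, and defining markers of other cell types. Some genes that the rule names are not reported here. Genes named outside this rule are marked as such or were chosen for their promoters or the list's known roles. Alternatives were other scalings, normexp background correction (on median spot brightness, offset 50), other filters, probe averaging, the series table, a 4-fold threshold and the fits above.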

Additional observations from a re-analysis of the deposited data

How the results depend on the processing

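No paired analysis was possible because each population has 1 array. The direction of every list median past 2-fold held under each scaling, filter, probe rule and source tried. Normexp background correction gave 914 genes higher and 683 lower, a filter on both arrays 836 lower, and a 4-fold threshold 637 higher and 628 lower. The additive fit called 26 higher and 152 lower, without the OT-I arrays 86 and 220, with slide as a block 0 and 0 (1874 named genes at an unadjusted p below 0.05), and on slide 1 alone 358 and 377; the last 3 were added after seeing the data, and each has fewer residual degrees of freedom. The other scalings, the absence of a filter, probe averaging and the series table kept the counts within 1.5 times.

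With normexp, list medians were 0.85 for co-receptors, -1.23 for CD4 lineage, -1.28 for CD8 and cytotoxic, -1.50 for regulatory T cell, -1.30 for chemokine receptors, -0.93 for myeloid and -1.54 for innate lymphoid genes. Genes well above background on both arrays gave -1.86 for CD4 lineage, -1.44 for CD8 and cytotoxic genes and -1.86 for chemokine receptors. Averaged probes gave -3.78 for CD4 lineage, and no filter gave -2.61 for innate lymphoid genes. Krt5 turned to 1.03 with averaged probes, since its probes oppose each other. The cause of the other shifts was not tested. Of 141 named genes, 50 moved by more than 0.57 (the residual SD of the fit) under normexp, 39 in the additive estimate and 4 with averaged probes, all in the same direction. The median of all genes was 0.13, and -0.05 with the percentile over probes well above background on all arrays. Small medians changed sign: heat shock to -0.12, glycolysis to -0.15 and erythroid to -0.004 under that percentile, plasmacytoid dendritic to -0.01 and gamma delta T (0.55 as measured) to -0.71 on both-array genes, and stroma to 0.16 with averaged probes. Genes dim on 1 array, 507 only measured in TCRβ-negative and 640 only in CD4SP cells, have bounds, not levels.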

Other observations

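Of the 26 named genes that rose in the limma fit, 23 are on none of the lists; those below were chosen after their values were seen. Scn2b and Scn4b, auxiliary subunits of voltage-gated sodium channels, both rose. Scn4b was 2.89 in TCRβ-negative and 0.09 in CD4SP cells, with 3.36 in DP CKO and 2.99 in DP control cells (limma estimate 3.05, SE 0.43, adjusted p = 0.047), and Scn2b was 1.69 in TCRβ-negative cells and dim in CD4SP cells (at least 5.11, adjusted p = 0.034). Sytl3, a Rab-binding synaptotagmin-like protein, was 5.88 and 1.89 in TCRβ-negative and CD4SP cells (adjusted p = 0.0324), and Cerk, ceramide kinase, was 5.76 and 3.24 (adjusted p = 0.0466). The F-box protein gene Fbxl12 was 7.28 in TCRβ-negative and 4.06 in CD4SP cells, with 7.45 in DP CKO cells.

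Dpf1, a subunit of neuronal BAF chromatin remodelling complexes, did not follow the DP arrays. Its level was 1.11 in TCRβ-negative cells, and it was -3.14 in CD4SP CKO, -3.09 in DP CKO and -2.38 in DP control cells (difference at least 4.25, limma estimate 4.77, SE 0.56, adjusted p = 0.0349). Clspn, which encodes the replication checkpoint mediator claspin, was -0.46 in TCRβ-negative, -1.57 in DP CKO and -1.19 in DP control cells and dim in CD4SP CKO cells (at least 2.98).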
